A study of Bos taurus with 9 samples.

Results

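The genes described here are 10 established transcriptional targets of YAP and TEAD, namely *CCN1*, *CCN2*, *ANKRD1*, *AXL*, *AJUBA*, *CRIM1*, *F3*, *TGFB2*, *ARHGEF17* and *NT5E*. They were chosen by name, and all 10 were found by symbol among the 21512 genes of the deposited expression table. The table holds the transcriptomes of single bovine blastocysts at day 8 after *in vitro* fertilization (D8), 5 wild type (WT) and 4 *TEAD4* KO, with 1 library per embryo. KO embryos (genotype TEAD4-/-) were injected as oocytes with *Cas9* mRNA and a guide RNA against the fourth exon of *TEAD4*, and by the study's genotyping they carried frame-disrupting alleles only. WT embryos contained no mutated allele, and the study's control group received *Cas9* mRNA without the guide. All embryos came from slaughterhouse oocytes and the semen of a single bull, and grew in synthetic oviduct fluid with fetal calf serum. The edits arose independently in each embryo, so the KO group is not 1 line and its embryos may differ in their alleles. WT embryos carry the names WT_1 to WT_5 and KO embryos the names TE_1 to TE_4. Where a value is listed for each embryo, the list follows these numbers.

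TEAD proteins bind DNA but depend on cofactors to activate transcription. When the Hippo kinases are inactive, YAP (gene *YAP1*) and TAZ (gene *WWTR1*) enter the nucleus, join a TEAD and switch on genes that act in adhesion, the cytoskeleton and growth control. In the mouse blastocyst this occurs in the outer cells, which become trophectoderm (TE), while Hippo kinases keep YAP out of the nuclei of inner cells. Several of the targets also answer to other signals, such as serum, stretch and TGF-beta. Comparing their transcripts between genotypes therefore asks whether the usual readout of YAP and TEAD differs in embryos with edited *TEAD4*.

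None of the 10 target genes was called changed in *TEAD4* KO blastocysts, and WT and KO values overlapped for every one of them. *CCN2* came nearest to a difference. Its mean was 17.8 ± 9.90 TPM for WT (SD, n = 5) and 48.0 ± 26.2 TPM for KO (SD, n = 4), and in 3 of 4 KO embryos it was above every WT embryo. The target genes were divided in direction: KO embryos had the higher mean log2(TPM + 1) for *CCN1*, *CCN2*, *ANKRD1* and *AJUBA* and the lower for *CRIM1*, *F3*, *TGFB2* and *NT5E*. *AXL* and *ARHGEF17*, both near 0 TPM, had marginally lower means in KO (differences of −0.029 and −0.016). TPM is a transcript's share of a library that corrects for transcript length and sums to 1000000 in each library. The test was limma on log2(TPM + 1), run on the 14599 genes whose median over all 9 libraries exceeded 0.1 TPM, with Benjamini-Hochberg adjusted p-values over all of them. *AXL* and *ARHGEF17* were under that median, which left 8 target genes in the limma fit. Of these, 0 had an adjusted p-value under 0.05 from limma, against 0.0205% of all genes tested (0.0137% higher and 0.00685% lower in KO). Before adjustment 1 (*CCN2*) was under 0.05, higher in KO, against 5.90% of all genes (2.07% higher and 3.83% lower in KO), and the exact permutation test also gave 1 (*CCN2*), against 5.38% of all genes (2.30% higher and 3.08% lower in KO). Groups that did not overlap were found for 0 of the 8, against 2.03% of all genes tested (0.801% with KO above WT and 1.23% with KO below).

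The libraries differed in more than genotype. Between 14776 and 16678 genes were above 0 TPM in each, and all 12 housekeeping genes looked up were above 0 in every library. Markers of all blastocyst lineages were found. The 10 trophectoderm and the 7 epiblast markers listed were above 0 TPM in every library, and of the 6 hypoblast markers only *FOXA2* was listed at 0 in some. WT_1 had the highest sum of trophectoderm markers (19106 TPM, most of it from the keratins *KRT8* and *KRT18*) and the lowest sum of epiblast markers (929 TPM). WT_4 had the lowest trophectoderm sum (4256 TPM) and, among WT, the highest epiblast sum (2439 TPM). In whole-embryo libraries, fewer cells of a type and less RNA per cell cannot be told apart. Of the cumulus and granulosa cell genes looked up, *HAS2* and *PTX3* were at or near 0, with a highest value of 0.520 TPM for *HAS2* and 0.370 TPM for *PTX3*. *CYP11A1* and *FSHR* of the same list reached 247 and 26.8 TPM. The sum of the 9 genes was between 77.2 and 267 TPM in WT and between 9.07 and 129 TPM in KO. In every WT embryo most of that sum was *CYP11A1*, and the other 8 genes summed to between 20.0 and 37.6 TPM. In the KO embryos *CYP11A1* measured 26.7, 7.22, 96.7 and 4.57 TPM. The other 8 genes summed there to 30.9, 30.6, 32.6 and 4.50 TPM. Among these markers 0 of 10 trophectoderm, 7 epiblast, 5 hypoblast and 7 cumulus genes tested had an adjusted p under 0.05 in limma. Before adjustment 1, 0, 1 and 1 of them were under 0.05 (*TFAP2A*, *GATA4* and *CYP11A1*), and by the exact permutation test 0, 0, 1 and 1. All of these were lower in KO, beside 3.83% and 3.08% of all genes lower in KO by the same tests. A lower mean in KO was found for 7, 3, 5 and 5 of them, against 55.8% of all genes tested. The part of these marker levels in the values of the target genes was not tested.

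*TEAD4* itself, the edited gene, was between 18.0 and 54.3 TPM in WT and between 12.5 and 42.8 TPM in KO blastocysts, with overlapping values (log2 fold change −0.51 with a standard error of 0.42, limma adjusted p = 0.947). A small indel need not remove the transcript, so this level does not check the genotype.

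**Figure D1:**
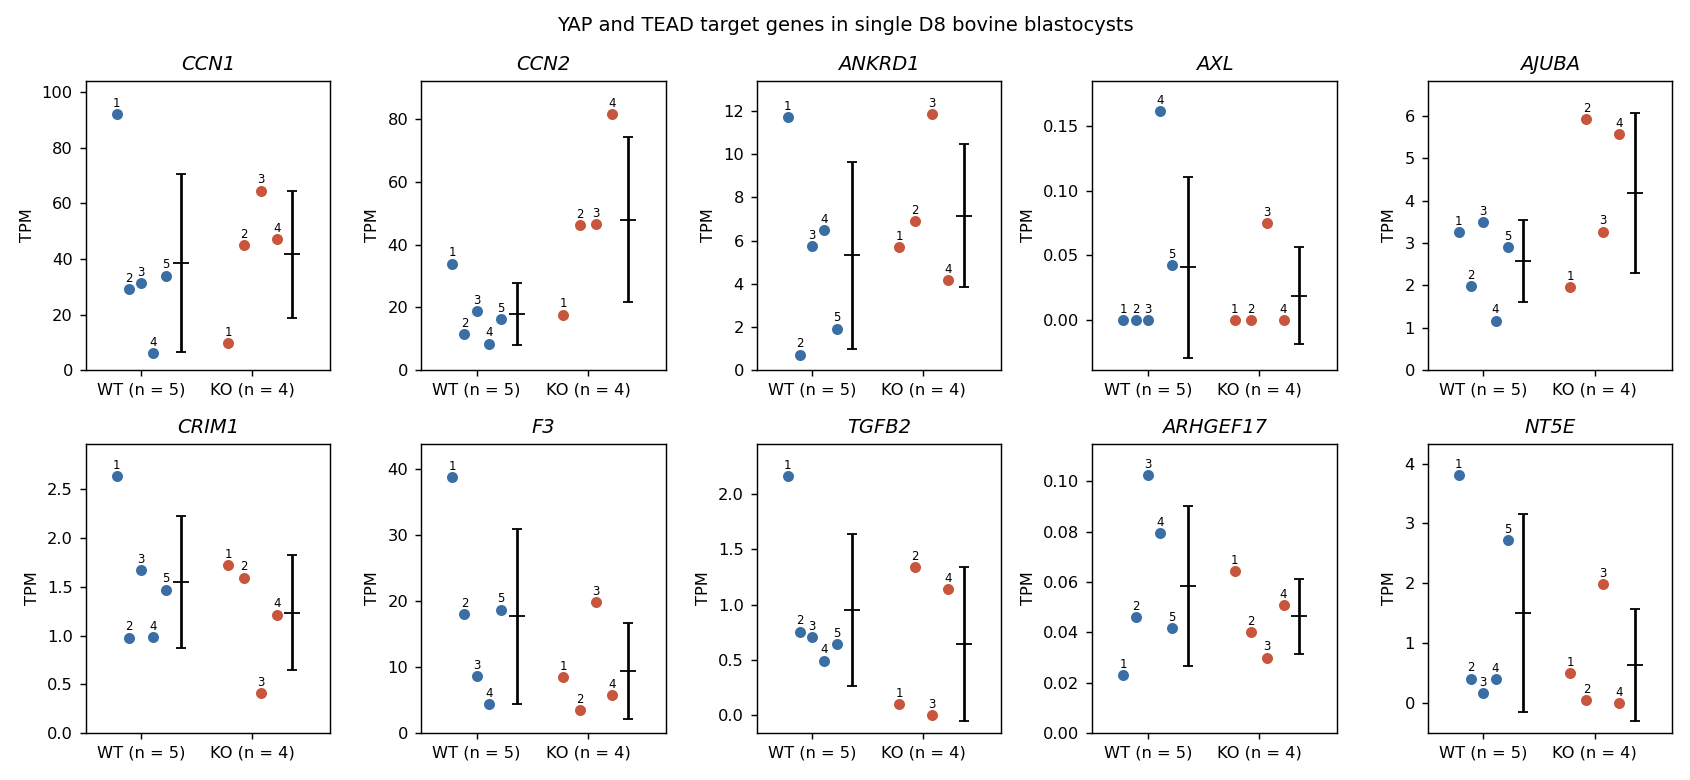
Abundance in TPM (vertical axis, a separate scale for each gene) of the 10 target genes in 5 WT (blue) and 4 KO (red) D8 blastocysts; each point is 1 embryo, marked with its number, and black bars give the mean and SD. The genotypes overlap in every panel, and for *CCN2* KO embryos 2, 3 and 4 lie above all WT embryos.

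*CCN1* and *CCN2*, once named CYR61 and CTGF, encode secreted matricellular proteins and are the most widely used readouts of YAP activity. *CCN1* measured 91.9, 29.1, 31.2, 6.02 and 34.0 TPM in WT embryos and 9.78, 45.0, 64.6 and 47.0 TPM in KO embryos. Both the highest and the lowest embryo were WT, and the WT values spanned a 15.3-fold range. The log2 fold change of KO against WT was 0.26 (standard error 0.68, 95% interval −1.22 to 1.75, limma adjusted p = 0.987). It became −0.25 without WT_4 and −0.034 without TE_3, and 0.83 without TE_1, so that its direction rested on single embryos.

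*CCN2* measured 34.0, 11.5, 18.9, 8.50 and 16.4 TPM in WT embryos and 17.7, 46.1, 46.5 and 81.6 TPM in KO embryos. TE_1 lay within the WT range, and WT_1 and WT_3 were above it but below the other KO embryos. The log2 fold change was 1.34 (standard error 0.46, 95% interval 0.34 to 2.34, unadjusted p = 0.0127). After adjustment for all genes tested it was not past the threshold (limma adjusted p = 0.678). The exact permutation test (two-sided, on every division of the 9 embryos into 5 and 4) gave p = 0.0476, and it cannot go below 0.0159. The log2 fold change stayed above 1 whichever embryo was left out, between 1.03 without TE_4 and 1.74 without TE_1. Over all alternative fits its adjusted p-value lay between 0.395 and 0.999.

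*ANKRD1*, which encodes a nuclear ankyrin-repeat cofactor that also responds to stretch in muscle, measured 11.7, 0.720, 5.74, 6.49 and 1.92 TPM in WT embryos. The KO embryos had 5.70, 6.89, 11.8 and 4.18 TPM. TE_1, TE_2 and TE_4 lay within the WT range, and TE_3 was marginally above it. The log2 fold change was 0.61 (standard error 0.55, 95% interval −0.58 to 1.81, exact permutation test, two-sided, p = 0.381), and it was 0.23 without WT_2 and 1.16 with array weights, which give less weight to libraries that vary more.

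*AJUBA* encodes a LIM-domain scaffold of cell junctions that restrains the LATS kinases and so acts back on the Hippo pathway. It measured 3.26, 1.99, 3.50, 1.17 and 2.91 TPM in WT embryos and 1.95, 5.91, 3.27 and 5.57 TPM in KO embryos. TE_2 and TE_4 were above every WT embryo, while TE_1 was within the lower WT values (log2 fold change 0.51 with a standard error of 0.36, 95% interval −0.27 to 1.28, limma adjusted p = 0.929). *ARHGEF17* was between 0.0230 and 0.102 TPM in WT and between 0.0299 and 0.0644 TPM in KO embryos. It was under the threshold of the limma fit, and the exact permutation test (two-sided) gave p = 0.540.

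**Figure D2:**
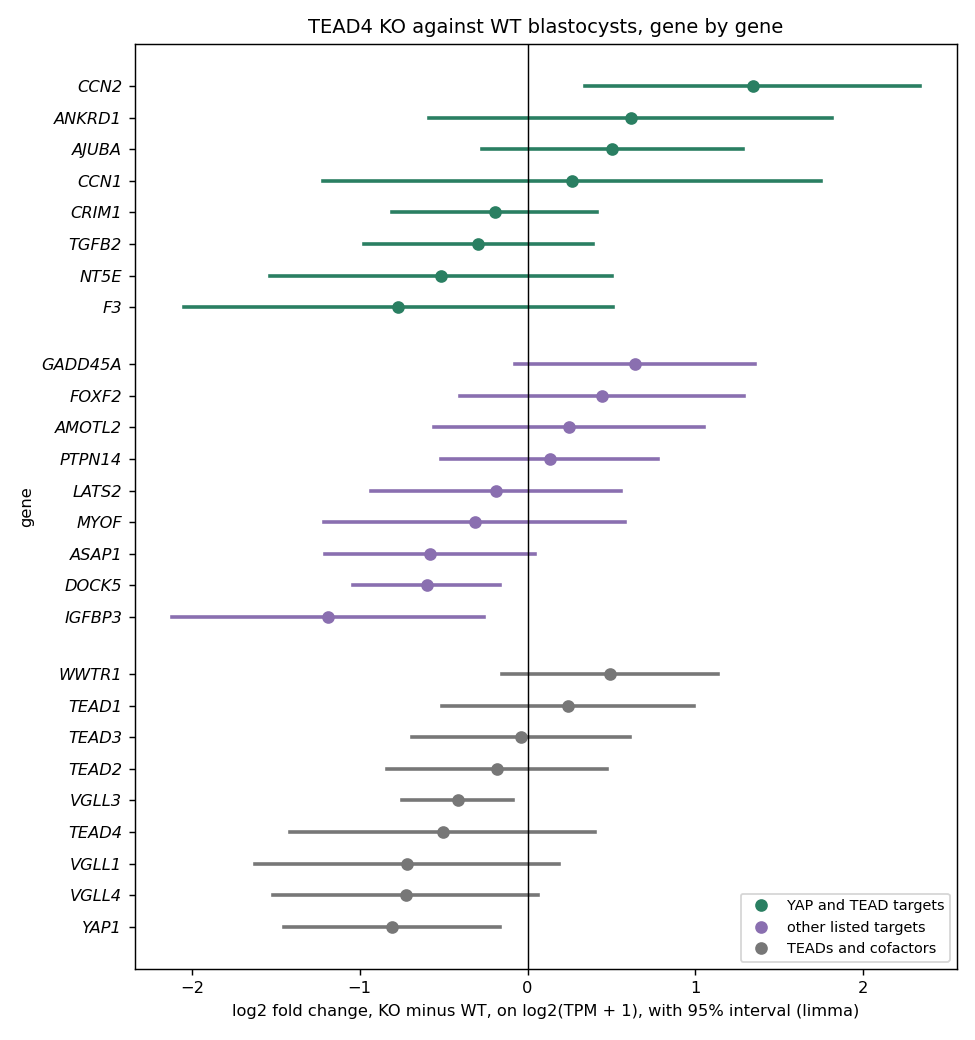
Log2 fold change of KO against WT (horizontal axis, on log2(TPM + 1); point) with its 95% interval from limma (line) for the 8 target genes tested, 9 other listed targets, and 9 TEAD and cofactor genes. *CCN2* is the only one of the 8 whose interval does not include 0; among the other genes *IGFBP3*, *DOCK5*, *YAP1* and *VGLL3* lie below 0 with their whole interval, before any adjustment.

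The remaining targets encode proteins of the cell surface and a TGF-beta ligand, and each had a lower mean in KO embryos without passing a test. *F3*, tissue factor, starts the extrinsic coagulation cascade at the cell membrane. It measured 38.8, 18.0, 8.57, 4.36 and 18.7 TPM in WT embryos and 8.51, 3.47, 19.9 and 5.78 TPM in KO embryos. Only WT_1 was above all KO embryos, and only TE_2 was below all WT embryos (log2 fold change −0.77 with a standard error of 0.59, 95% interval −2.05 to 0.51, limma adjusted p = 0.935). The difference was −0.42 without WT_1 and −1.18 without TE_3.

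*NT5E* encodes CD73, the ectoenzyme that releases adenosine from AMP. It measured 3.81, 0.404, 0.167, 0.395 and 2.72 TPM in WT embryos and 0.492, 0.0478, 1.99 and 0 TPM in KO embryos. Each genotype held embryos near 0, and only WT_1, WT_5 and TE_3 were at about 2 TPM or more. The means of 1.50 TPM in WT and 0.633 TPM in KO thus describe few embryos, and in KO mainly TE_3. The log2 fold change was −0.51 (standard error 0.47, limma adjusted p = 0.956) and −0.22 without WT_1. It was −1.35 with a pseudocount of 0.1 TPM (limma adjusted p = 0.922). At such levels the size of the change depends on the pseudocount, and a smaller pseudocount gives more weight to values at or near 0.

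*TGFB2*, a ligand of the TGF-beta receptors, measured 2.16, 0.755, 0.705, 0.495 and 0.642 TPM in WT embryos and 0.0970, 1.34, 0 and 1.14 TPM in KO embryos. The KO embryos fell on either side of most WT embryos, with TE_1 and TE_3 below and TE_2 and TE_4 above all of them but WT_1. The log2 fold change was −0.29 (standard error 0.31, 95% interval −0.98 to 0.39). It was −0.088 without TE_3 and −1.10 with a pseudocount of 0.1 TPM.

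*CRIM1* encodes a transmembrane protein that binds bone morphogenetic proteins. It measured 2.64, 0.978, 1.67, 0.981 and 1.47 TPM in WT embryos and 1.72, 1.60, 0.409 and 1.22 TPM in KO embryos. TE_3 alone was below the WT embryos, and without it the log2 fold change of −0.20 (standard error 0.28) became 0.011. *AXL*, a receptor tyrosine kinase, was listed at 0 in 3 of 5 WT and 3 of 4 KO libraries. Its highest value was 0.161 TPM, in WT_4. *AXL* was under the threshold of the limma fit, and the exact permutation test (two-sided) gave p = 0.873.

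By mean TPM in WT embryos, the order of the target genes was *CCN1*, *CCN2*, *F3*, *ANKRD1*, *AJUBA*, *CRIM1*, *NT5E*, *TGFB2*, *ARHGEF17* and *AXL*. The means ran from 38.5 TPM for *CCN1* to 0.0408 TPM for *AXL*. WT values of neighbours in this order overlapped for 8 of 9 pairs, and only *TGFB2* and *ARHGEF17* had separate ranges. *AJUBA* was nevertheless above *CRIM1* within each of the 5 WT embryos. By contrast, *CCN2* was above *F3* in only 2 of the 5, and *NT5E* above *TGFB2* also in only 2. Over all 9 libraries, 14.4% of the genes of the table had a higher mean than *CCN1* and 16.8% a higher mean than *CCN2*, against 79.7% for *AXL*.

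The target genes varied widely between embryos of 1 genotype. The pooled SD of log2(TPM + 1) within genotypes had a median of 0.824 over the 8 target genes tested and 0.467 over all 14599 genes. Among the 8 it ranged from 0.395 for *CRIM1* to 1.26 for *CCN1*. Among the 10 trophectoderm markers it ranged from 0.579 for *TFAP2C* to 1.71 for *IFNT2*. The 8 genes were not matched with all genes for level, on which this SD depends. Wide variation is therefore not shown to be particular to the target genes. The median log2 fold change of the 8 genes was 0.034, and −0.046 over all genes tested. A lower mean in KO was found for 4 of the 8 and for 55.8% of all genes tested.

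In WT embryos much of this variation ran in the same direction across genes. WT_1 was the highest WT embryo for 7 of the 8 target genes tested (*AJUBA* was the exception) and the highest of all 9 embryos for 5 of them. WT_4 was the lowest WT embryo for 5 of the 8, *CCN1*, *CCN2*, *AJUBA*, *F3* and *TGFB2*. The TPM of all 10 target genes, to which *CCN1*, *CCN2* and *F3* contributed most, summed to 188, 63.5, 70.6, 28.7 and 78.8 among WT embryos. The KO embryos summed to 46.0, 110, 149 and 147. The KO sums lay within the WT range, with 3 of them above all WT embryos but WT_1.

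**Figure D3:**
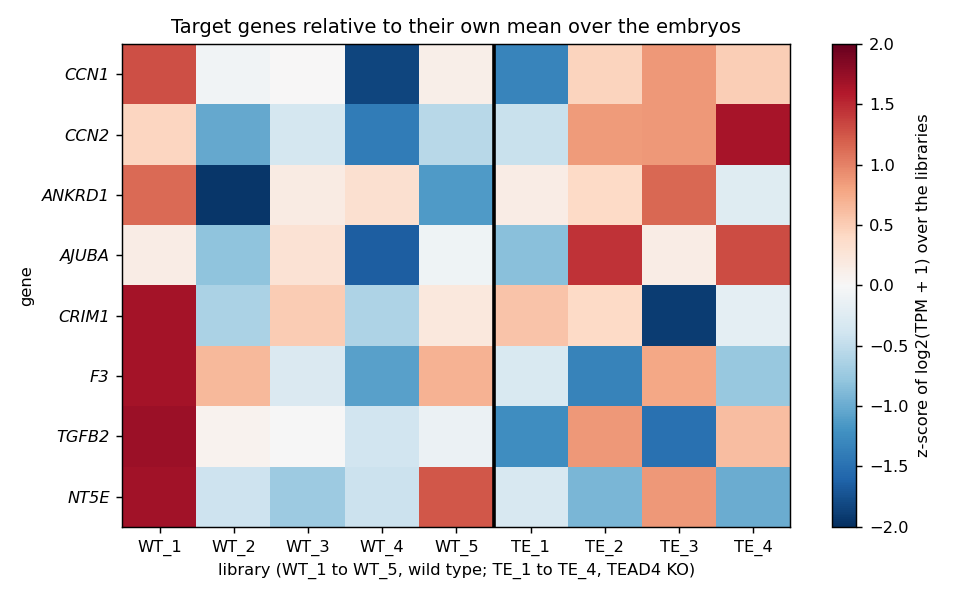
The 8 target genes tested (rows) in the 9 libraries (columns, WT left and KO right of the line), coloured by the z-score of log2(TPM + 1) over the libraries. The column of WT_1 is above the mean for every gene, and WT_4 is below it for all but *ANKRD1*; the KO columns mix high and low values.

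KO embryos showed no such embryo that was high for nearly all targets. TE_1 was the lowest KO embryo for *CCN1*, *CCN2* and *AJUBA*. TE_3 was the highest for *CCN1*, *ANKRD1*, *F3* and *NT5E* and the lowest for *CRIM1* and *TGFB2*. TE_2 was the highest KO embryo for *AJUBA* and *TGFB2*, and TE_4 for *CCN2*.

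The WT embryos with the highest and lowest sum of target genes were also those with the highest and lowest sum of trophectoderm markers. WT_1 was the highest WT embryo for 6 of the 10 trophectoderm markers and WT_4 the lowest for 6, while for the 7 epiblast markers WT_1 was the lowest for 5 and WT_4 the highest for 5. WT_1 was also the lowest WT embryo for 4 of the 6 hypoblast markers and for 3 of the 9 cumulus genes, ties left out, and had the fewest genes above 0 TPM among WT libraries (14807). Among KO embryos the orders differed: TE_2 had the highest trophectoderm sum (13290 TPM) and TE_3 the highest target gene sum. TE_4 was the lowest KO embryo for 8 of the 10 trophectoderm markers, with a target gene sum of 147 TPM. The part of the lineage markers in the level of the target genes was not tested.

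**Figure D4:**
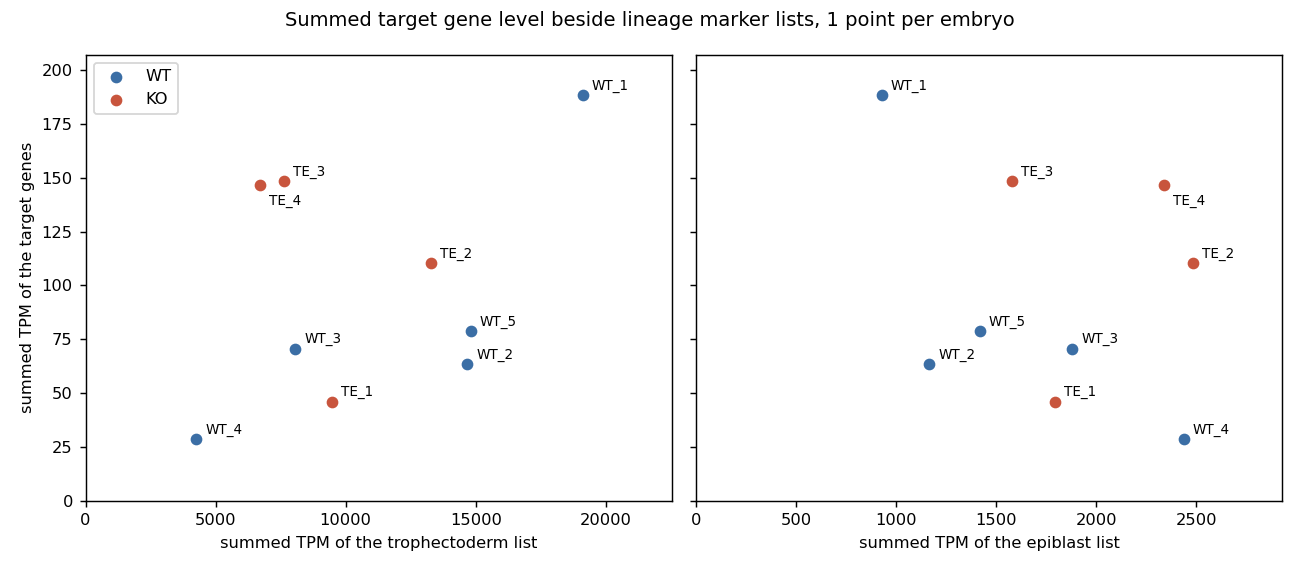
Summed TPM of the 10 target genes (vertical axis) against the summed TPM of 10 trophectoderm markers (left) and 7 epiblast markers (right), 1 point per embryo, WT in blue and KO in red. WT_1 lies at the highest trophectoderm and lowest epiblast sum with the highest target sum (188 TPM), and WT_4 at the lowest trophectoderm and lowest target sum (28.7 TPM); KO embryos TE_3 and TE_4 have high target sums (149 and 147 TPM) at low trophectoderm sums.

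A further 13 genes are often counted among the direct targets of YAP and TEAD. *NUAK2* was not found by symbol, and 9 of the remaining 12 passed the threshold for testing. Of these 0 had an adjusted p-value under 0.05 from limma, 2 (*IGFBP3* and *DOCK5*) had an unadjusted p-value under 0.05, both lower in KO (3.83% of all genes), and the exact permutation test gave 2 (*DOCK5* and *ASAP1*), also lower in KO (3.08% of all genes). *DOCK5*, an exchange factor for Rac, measured 1.69, 0.945, 0.615, 0.452 and 0.964 TPM in WT embryos and 0.315, 0.265, 0.312 and 0.105 TPM in KO embryos. All 4 KO embryos lay below the lowest WT embryo, as for 1.23% of all genes tested (exact permutation test, two-sided, p = 0.0159). In limma *DOCK5* had a log2 fold change of −0.60, with a standard error of 0.20 and an adjusted p = 0.671.

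*IGFBP3*, which binds insulin-like growth factors, was between 22.1 and 62.9 TPM in WT and between 6.23 and 29.0 TPM in KO embryos. Only TE_4 overlapped with WT embryos (log2 fold change −1.19 with a standard error of 0.43, limma adjusted p = 0.718). *ASAP1*, a GTPase-activating protein for Arf, had means of 3.62 ± 0.792 TPM (SD, n = 5) for WT and 2.12 ± 0.748 TPM (SD, n = 4) for KO (limma adjusted p = 0.847). *GADD45A*, a growth arrest and stress gene, was the most abundant of this list, with means of 92.4 ± 45.1 TPM (SD, n = 5) for WT and 140 ± 48.5 TPM (SD, n = 4) for KO. *AMOTL2*, *LATS2* and *PTPN14* encode inhibitors of YAP that are induced by YAP itself. Their means in WT and KO were 11.4 and 12.8 TPM for *AMOTL2*, 3.85 and 3.16 TPM for *LATS2*, and 2.32 and 2.64 TPM for *PTPN14*. Their log2 fold changes were 0.25 (95% interval −0.55 to 1.05), −0.19 (−0.93 to 0.56) and 0.13 (−0.52 to 0.78). The median log2 fold change of the 9 genes was −0.19, and 5 of them had a lower mean in KO, against −0.046 and 55.8% over all genes tested.

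Of the TEAD genes and their cofactors, 9 of 10 were tested and *VGLL2* was listed at 0 in every library. None had an adjusted p-value under 0.05 from limma, while 2 had an unadjusted p-value under 0.05 and no overlap between genotypes, *YAP1* and *VGLL3*, both lower in KO. Over all genes, 3.83% were lower in KO at that p-value and 1.23% had every KO embryo below every WT embryo. The exact permutation test gave the same 2 genes, against 3.08% of all genes lower in KO. A lower mean in KO was found for 7 of the 9 tested, *TEAD4* among them, and for 55.8% of all genes tested. The median log2 fold change of the 9 was −0.42, against −0.046 over all genes tested. *YAP1* measured 12.9, 12.4, 10.2, 10.6 and 14.4 TPM in WT embryos and 5.09, 9.76, 7.15 and 4.71 TPM in KO embryos (log2 fold change −0.81, limma adjusted p = 0.727). *WWTR1*, which encodes the other coactivator, TAZ, measured 24.7, 29.5, 35.5, 41.8 and 38.3 TPM in WT embryos and 29.1, 46.8, 47.4 and 77.7 TPM in KO embryos. TE_2, TE_3 and TE_4 were above every WT embryo for *WWTR1*, the same embryos as for *CCN2* (log2 fold change 0.49 with a standard error of 0.29, exact permutation test, two-sided, p = 0.143). WT_1, with the highest target gene levels among WT embryos, had the lowest *WWTR1* level of all embryos. A relation between the level of *WWTR1* and those of the target genes was not tested.

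*VGLL3*, one of the vestigial-like proteins that compete with YAP for TEADs, measured 0.314, 0.771, 0.443, 0.474 and 0.196 TPM in WT embryos. It was listed at 0 in TE_1 and TE_2 and measured 0.116 and 0.174 TPM in TE_3 and TE_4 (limma adjusted p = 0.727). *VGLL1* was the most abundant cofactor, with means of 228 ± 112 TPM (SD, n = 5) for WT and 132 ± 55.1 TPM (SD, n = 4) for KO, with overlapping values. *VGLL4* had means of 9.03 ± 3.64 TPM (SD, n = 5) for WT and 4.92 ± 1.74 TPM (SD, n = 4) for KO. Its values overlapped too (log2 fold change −0.73 with a standard error of 0.36, limma adjusted p = 0.847). *TEAD1*, *TEAD2* and *TEAD3* were above 8 TPM in every library, with log2 fold changes of 0.24 (95% interval −0.51 to 0.99), −0.18 (−0.84 to 0.48) and −0.039 (−0.69 to 0.61).

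**Figure D5:**
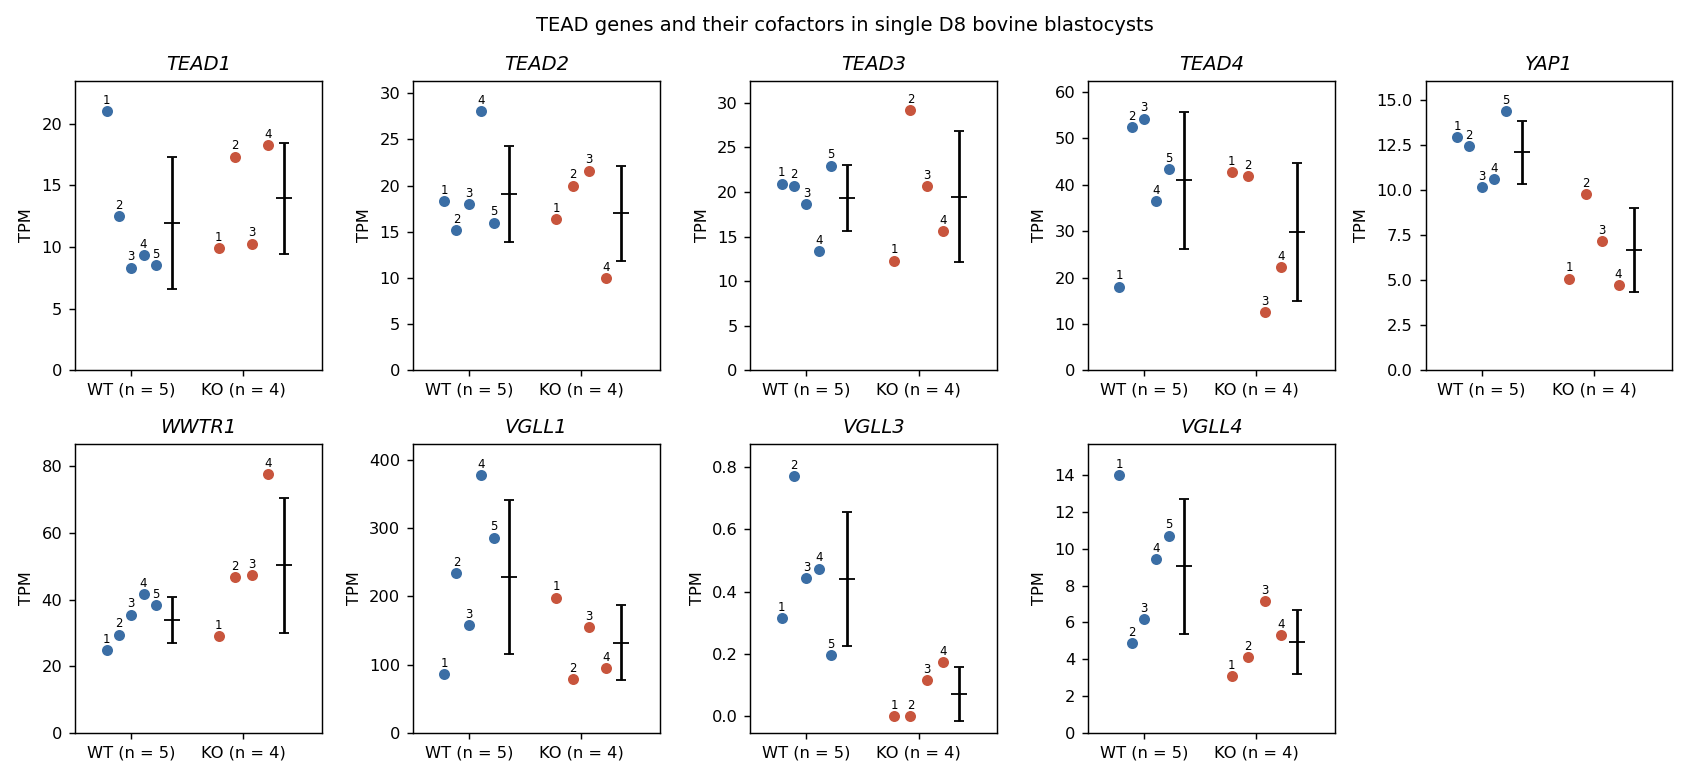
Abundance in TPM (vertical axis, a separate scale for each gene) of the 4 TEAD genes and 5 cofactors in 5 WT (blue) and 4 KO (red) blastocysts; points are embryos marked with their number and black bars give the mean and SD. *YAP1* and *VGLL3* do not overlap between genotypes, and the other 7 genes do.

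Relatives and partners of the target genes were looked up to see which functions were represented in the blastocyst. Of 24 such genes 18 were tested, and none had an adjusted p-value under 0.05 from limma (2 had an unadjusted p-value under 0.05, *ENTPD1* and *TGFBR3*, both lower in KO, against 3.83% of all genes; the exact permutation test gave 1, *ENTPD1*, against 3.08%). Among the receptors related to *AXL*, *TYRO3* had means of 24.5 TPM for WT and 26.4 TPM for KO and *MERTK* 7.96 and 6.85 TPM, and both were above 0 in every embryo. Their ligand *PROS1* was the most abundant of these genes, at 86.0 and 92.4 TPM. *ENTPD1* encodes CD39, which makes the AMP used by *NT5E*, and had means of 1.83 TPM for WT and 0.348 TPM for KO (limma adjusted p = 0.798). Of the other CCN genes, *CCN4* was listed at 0 in every library, and *CCN3*, *CCN5* and *CCN6* did not exceed 4 TPM in any.

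*CCN1*, *CCN2* and *ANKRD1* also respond to AP-1 and serum response factor, which often act beside TEADs. Of 12 AP-1 and immediate early genes 11 were tested, and 0 had an adjusted p-value under 0.05 from limma, 0 an unadjusted p-value under 0.05 (5.90% of all genes) and 0 an exact p-value under 0.05 (5.38%). *JUN* had means of 26.6 TPM for WT and 26.8 TPM for KO, and *FOS* 23.4 and 16.2 TPM. *EGR1* varied most widely, from 0.375 to 16.3 TPM in WT and from 0.778 to 6.31 TPM in KO. The log2 fold changes of the 11 genes were between −0.38 (*FOS*) and 0.49 (*FOSL1*).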

How the data were processed

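mRNA of individual blastocysts was sequenced, 1 library per embryo. The authors quality-controlled and pseudoaligned the reads, and the deposited values are TPM for 21512 genes (3345 under a bovine Ensembl identifier). The submitters' processing notes name FastQC, fastp and kallisto. Versions, annotation and genome build are not given in the sources used here, so no coordinates are given. The labels and the paper describe different RNA extraction, library kits and sequencers. The paper gives the read number per library only as a range, not tied to columns, and TPM keep no read number, so no counting interval is given. Column names gave the genotype of each library; the number in a column name is not tied to a deposited sample.

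Genes with a median above 0.1 TPM, the filter stated in the paper, entered a linear model of log2(TPM + 1), KO minus WT, with Benjamini-Hochberg adjustment and 95% intervals (limma 3.58.1, functions lmFit and eBayes with trend, under R 4.3.3). Genes were called at an adjusted p under 0.05. The count-based test that the paper used does not apply to TPM. For single genes an exact permutation test, two-sided, was added on the difference of mean log2(TPM + 1), over 126 splits (scipy 1.17.1). The limma fit and the permutation test were tested on simulated data.

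The target genes and the other gene lists were chosen with earlier results of these data known, so counts over a list are descriptions set beside the share over all genes. Named genes were the 10 targets, tested genes of the other target and TEAD lists, and in further lists the genes that did not overlap or were highest or lowest. *TGFBR3*, *ENTPD1*, *JUN*, *FOS*, *MERTK*, *TYRO3*, *EGR1*, *GATA4*, *TFAP2A*, the remaining relatives and the cumulus genes were named after their values were seen. All 10 targets match RefSeq symbols of ARS-UCD2.0. A planned motif search in promoters was not run, and sequences are not used here. The fit was repeated without each embryo, with quantile normalization or median-of-ratios size factors, without the filter or with one of 1 TPM, with a pseudocount of 0.1 TPM, and with array weights or no trend in limma. Tables and plots were made with matplotlib 3.10.9, pandas 2.3.3 and numpy 2.4.6 (Python 3.11.15).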

Additional observations from a re-analysis of the deposited data

Results flagged for a closer look

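In 59 sets of 4 or 5 embryos of 1 genotype, over the 10 target genes, the other listed targets and the TEAD and cofactor genes, the embryo farthest from the rest was examined with Dixon's test on log2(TPM + 1). For normally distributed values chance alone singles out about 1 in 20 sets, and 5 sets had an embryo past the critical value. Some sets held several embryos at 0 TPM, where that rate does not apply, so the count of 5 cannot be read against it. *TGFB2* in WT_1 was at 2.16 TPM, while the next WT embryo was at 0.755 TPM. *IGFBP3* in WT_3 was at 62.9 TPM, and the next WT embryo at 29.6 TPM. The others concern genes near 0: *AXL* at 0.161 TPM in WT_4 and at 0.0748 TPM in TE_3, and *CCDC80* at 0.0760 TPM in WT_4. For *AXL* in KO every embryo but TE_3 was at 0 TPM, so any value above 0 would have passed.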

How the results depend on the processing

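Among the 8 target genes tested, 0 were called under each of the 7 other settings and whichever embryo was left out, and the same held for the other listed targets, TEADs and cofactors. The number of genes called among all genes, 3, became 8 with a pseudocount of 0.1 TPM, 8 with a median above 1 TPM, 5 with median-of-ratios size factors, 6 with quantile normalization and 5 without trend, and ranged from 0 to 10 when single embryos were left out. The number of target genes with a lower mean was 2 with a median above 1 TPM, where only 6 target genes were tested, and 4 to 5 when single embryos were left out. Leaving out single embryos gave log2 fold changes of −0.25 to 0.83 for *CCN1* and of −0.31 to 0.011 for *CRIM1*, the only target genes whose direction reversed under any alternative. The median log2 fold change of the target genes ranged from −0.27 without WT_4 to 0.27 without TE_1 and was 0.38 with a median above 1 TPM, where *TGFB2* and *NT5E* leave the fit. No paired analysis was possible because each library is a separate embryo, and the sample titles number the embryos without repeats. Since the read number of each library is not tied to its column, no counting error was computed for values under 1 TPM, such as those of *AXL*, *ARHGEF17* and most of *NT5E*.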

Other observations

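The balance between *CCN2* and *CCN1* was looked at after their values were seen and was therefore not tested. *CCN2* was below *CCN1* in 4 of 5 WT embryos. The TPM of *CCN2* over that of *CCN1* was 0.370, 0.393, 0.607, 1.41 and 0.481 in WT embryos and 1.81, 1.02, 0.720 and 1.74 in KO embryos. In 3 of 4 KO embryos and in WT_4 *CCN2* was the more abundant of the pair. On the log2 scale the ratio had a mean of −0.81 ± 0.78 for WT (SD, n = 5) and of 0.30 ± 0.64 for KO (SD, n = 4).

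*GATA4*, a hypoblast transcription factor outside the target list, was below every WT embryo in all KO embryos, with means of 1.46 TPM for WT and 0.640 TPM for KO. Such a separation was found for 1.23% of all genes tested, and *GATA4*, named after its values were seen, had an adjusted p = 0.684 in limma. *CYP11A1*, which begins steroid synthesis and is also expressed in trophoblast, had means of 129 TPM for WT and 33.8 TPM for KO (log2 fold change −2.61, limma adjusted p = 0.566), with overlapping values.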
